A study of Mus musculus with 4 samples.

Results

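The genes described here are 10 genes that mark tissue-resident macrophages, taken by symbol from a list: Csf1r, Cx3cr1, Adgre1, Mrc1, Cd163, Msr1, Timd4, Folr2, Cd68 and Mpeg1. All 10 were found among the 55291 gene symbols of the count files, and all 10 were among the 19134 genes that passed the filter on low counts. RNA of whole mouse pancreas had been sequenced in 4 libraries. The libraries labelled knockout (n = 2) came from mice with Pdx1-Cre and both copies of poh1 floxed (poh1f/f), and the control libraries (n = 2) from mice with Pdx1-Cre and a single floxed copy (poh1f/+). Both groups thus carried the Cre recombinase and a floxed allele, and no group without Cre was analysed here. The sources used here do not give the strain, age or sex of the mice, or tell if the libraries stand for different animals, so the p-values cover only the spread between libraries, which may be technical.

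Resident macrophages settle in a tissue before or after birth, live there for long periods, and clear dying cells, free haemoglobin and debris. In the pancreas they lie among the acini, around ducts and inside islets. Their survival depends on the receptor for colony-stimulating factor 1, and they derive from blood-forming lineages. The Pdx1 promoter drives Cre in the embryonic epithelium of the pancreas, a lineage to which macrophages do not belong.

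Total counts were 27470926 and 27849730 in the libraries labelled knockout and 22875618 and 24635792 in controls. Values are CPM, counts scaled to a common library total, after a further scaling for library composition, and 1 count was worth 0.0342 to 0.0455 CPM. Psmd14, the current name of poh1, was at 65.9 and 65.2 CPM in libraries labelled knockout and 61.6 and 52.9 CPM in controls, so the targeted gene was not lower at the level of gene counts (log2 fold change 0.20, edgeR adjusted p = 0.259), and directions given here are between labelled groups. The second library labelled knockout stood apart in enterocyte genes, with a summed level of 558 CPM over 7 genes against 5.48 CPM in the first, and 19.9 and 24.6 CPM in controls. Summed acinar markers were 215 and 631 CPM in libraries labelled knockout and 10832 and 2406 CPM in controls, with control replicate 1 the highest. Summed B cell markers were 1032 and 1063 CPM in libraries labelled knockout and 53.5 and 30.04 CPM in controls, and summed adipocyte markers 4176 and 3561 CPM against 426 and 1012 CPM in controls.

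The 10 genes did not move together. Of the 10, Cd68, Cx3cr1, Mpeg1 and Adgre1 fell in the libraries labelled knockout, Timd4 rose about 12.2-fold, and 5 did not pass the test (edgeR quasi-likelihood, Benjamini-Hochberg adjusted p under 0.05 over all genes). Lower calls were thus 4 of 10, or 40%, where 9.95% of all tested genes were called lower, and higher calls 1 of 10, where 12.1% of all tested genes were called higher. The median log2 fold change of the 10 genes was −0.28, and that of all tested genes 0.00. In the plot of levels by library the groups are apart for 5 genes on the lower side and 3 on the higher side, whereas 33.7% and 34.4% of all tested genes have groups that do not overlap on those sides. Because these are bulk libraries, fewer macrophages, less RNA of a gene per macrophage and more RNA from other cells cannot be told apart.

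**Figure D1:**
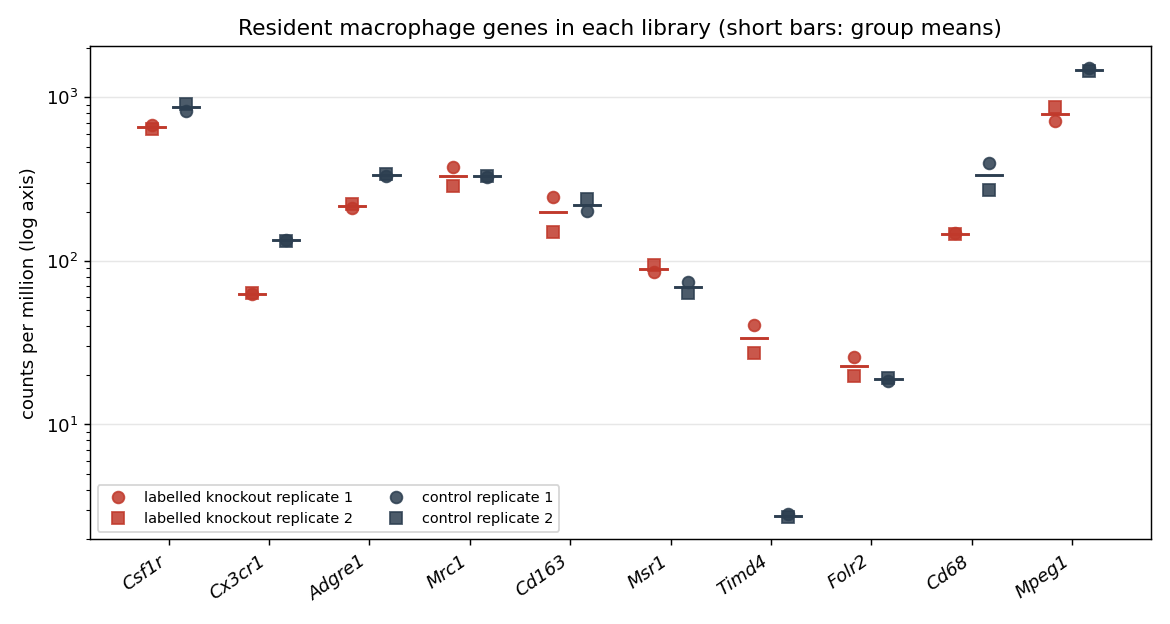
Level of each resident macrophage gene (CPM, log axis) in each of the 4 libraries, labelled knockout in red and control in dark blue, circles for replicate 1 and squares for replicate 2, with short bars at the group means. Timd4 is at 40.5 and 27.2 CPM in libraries labelled knockout and below 3 CPM in controls, whereas Cx3cr1, Cd68, Adgre1 and Mpeg1 lie lower in the libraries labelled knockout and Mrc1 and Cd163 overlap.

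Among the surface receptors, Csf1r (GRCm38 chromosome 18, 61100598 to 61132149, plus strand) encodes the receptor for the cytokines CSF1 and IL-34 on which macrophage survival depends. It was at 678 and 639 CPM in libraries labelled knockout and at 829 and 916 CPM in controls. Both libraries labelled knockout were below both controls, but the difference did not pass the test (log2 fold change −0.41 ± 0.14 SE, 95% interval −0.76 to −0.05, edgeR adjusted p = 0.0957). DESeq2 did call it lower (adjusted p = 0.00982), the lowest of 13 alternatives whose highest was 0.456. Exons of Hmgxb3 on the other strand cover 15.1% of the Csf1r exon bases, and the strand setting of the counting is not given, but Hmgxb3 itself was at 34.7 and 37.8 CPM against 32.2 and 43.5 CPM. Cx3cr1 (chromosome 9, 119901616 to 120069879, minus strand) encodes the receptor for fractalkine, carried by many tissue macrophages and by patrolling monocytes. Its level was 62.7 and 63.6 CPM in libraries labelled knockout and 135 and 132 CPM in controls. The replicates of each group were nearly equal, and the gene fell by 1.08 ± 0.09 on the log2 scale, so that it was about 2.12-fold higher in controls (edgeR adjusted p = 0.0039). The call held in each of the 13 alternatives, with adjusted p from 2.43e-15 to 0.032.

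Adgre1 (chromosome 17, 57358691 to 57483527, plus strand) encodes the adhesion receptor whose antibody has long been used to identify mouse macrophages. It was at 211 and 221 CPM in libraries labelled knockout and 331 and 341 CPM in controls. All values of the libraries labelled knockout were lower, and the gene fell by 0.63 ± 0.11 on the log2 scale (adjusted p from edgeR = 0.0204). The log2 fold change stayed between −0.67 and −0.54 in all alternatives, but the call was lost without the first library labelled knockout (edgeR adjusted p = 0.121), without the second (0.0973), without control replicate 1 (0.0517) and with a replicate block (0.0545), in a range from 2.53e-06 to 0.121.

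Cd68 and Mpeg1 also fell. Cd68 (chromosome 11, 69664213 to 69666153, minus strand) encodes a glycoprotein of late endosomes and lysosomes that is abundant in phagocytes of all kinds. It was at 147 and 145 CPM in libraries labelled knockout and at 398 and 272 CPM in controls. The libraries labelled knockout were nearly equal and the controls were not, with control replicate 1 the highest. The log2 fold change was −1.20 ± 0.20, a 2.29-fold higher mean in controls (edgeR adjusted p = 0.0186). It was −0.90 without control replicate 1 and −1.45 without control replicate 2, and the gene was called in all 13 alternatives. Mpeg1 (chromosome 19, 12460779 to 12465283, plus strand) encodes perforin-2, a pore-forming protein that phagocytes use against engulfed bacteria. It was at 713 and 873 CPM in libraries labelled knockout and at 1504 and 1446 CPM in controls, again with no overlap. It fell by 0.90 ± 0.17 on the log2 scale (adjusted p from edgeR = 0.022). Its call was lost without the first library labelled knockout (log2 fold change −0.76, edgeR adjusted p = 0.071), without control replicate 1 (−0.87, 0.0836) and without control replicate 2 (−0.92, 0.0585), in a range of adjusted p from 2.7e-07 to 0.0836.

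Timd4 went the other way on the log2 scale. The gene (chromosome 11, 46810800 to 46844332, plus strand) encodes a receptor for phosphatidylserine, the lipid exposed on dying cells, and marks long-lived resident macrophages of several tissues, among them peritoneum, fat and lymph nodes. Raw counts were 1130 and 794 in the libraries labelled knockout and 62 and 65 in controls, which equals 40.5 and 27.2 CPM against 2.82 and 2.72 CPM. The difference was far larger than the spread within either group, although the first library labelled knockout was well above the second. The gene rose by 3.61 ± 0.26 on that scale (95% interval 2.96 to 4.26, adjusted p by edgeR 0.00286), and 97.3% of all tested genes had a smaller value. Leaving out each library in turn gave 3.29 to 3.87, and the gene was called in all 13 alternatives (adjusted p from 1.58e-30 to 0.0422).

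The other scavenger and endocytic receptors did not pass the test. Mrc1 (chromosome 2, 14229392 to 14332057, plus strand), the mannose receptor that takes up glycoproteins and is also made by lymphatic endothelium, was at 373 and 286 CPM in libraries labelled knockout and 325 and 332 CPM in controls. The control values lay between those of the libraries labelled knockout, and its log2 fold change of 0.01 had an edgeR adjusted p of 0.986. The interval, −0.42 to 0.43, leaves room for a difference of that size in either direction. Its sign turned to −0.20 without the first library labelled knockout and to −0.01 without control replicate 1, with limma-voom and with the replicate block. Cd163 (chromosome 6, 124304656 to 124330527, plus strand), the receptor for complexes of haemoglobin and haptoglobin, was at 247 and 149.9 CPM in libraries labelled knockout and 203 and 239 CPM in controls. The groups overlapped, and the log2 fold change was −0.16 ± 0.26 (edgeR adjusted p = 0.692), with 0.16 without the second library labelled knockout and −0.57 without the first. Msr1 (chromosome 8, 39581685 to 39642673, minus strand), a class A scavenger receptor for modified lipoproteins, was at 85.1 and 93.8 CPM against 73.9 and 63.8 CPM in controls. The groups did not overlap, yet the log2 fold change of 0.38 ± 0.12 did not pass (edgeR adjusted p = 0.076). It passed when libraries were scaled by total counts alone (0.48, edgeR adjusted p = 0.0475, in a range over alternatives up to 0.352), a scaling that moved the median of all tested genes to 0.10.

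Folr2 (chromosome 7, 101839988 to 101857194, minus strand) encodes folate receptor beta, a surface protein of perivascular and other resident macrophages. It was at 26.0 and 19.7 CPM in libraries labelled knockout and 18.6 and 19.4 CPM in controls. The second library labelled knockout was only just above the controls, and the difference did not pass (log2 fold change 0.27 ± 0.18, edgeR adjusted p = 0.331). It was 0.05 without the first library labelled knockout. Exons of the antisense gene Gm10602 cover 63.1% of the Folr2 exon bases, so the Folr2 level is uncertain without the strand setting, and Gm10602 was at 3.37 and 2.98 CPM against 4.14 and 3.10 CPM.

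**Figure D2:**
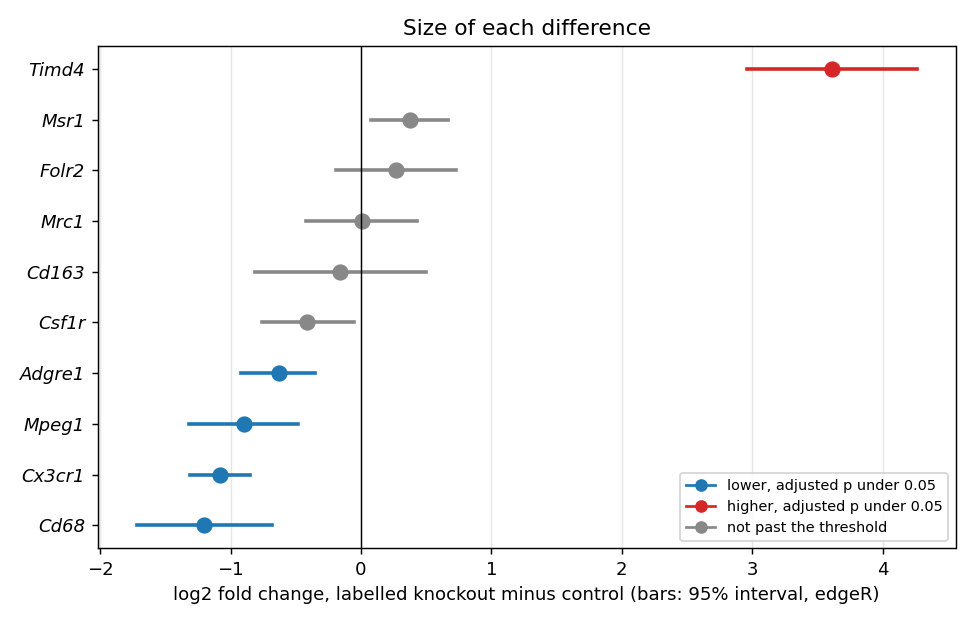
Log2 fold change of each resident macrophage gene, libraries labelled knockout minus control, with its 95% interval from edgeR (n = 2 libraries per group), blue for lower, red for higher and grey for genes not past the threshold. Timd4 lies alone at 3.61, Cd68 at −1.20 is at the other end, and the intervals of Folr2, Mrc1 and Cd163 include 0.

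Promoter sequence was set beside these values, since macrophage genes are known to depend on PU.1, a transcription factor that binds purine-rich DNA around the core GAGGAA. RefSeq windows (GRCm38.p6) were matched for 7 of the 10 genes, in 8 windows, Folr2 having 2. Adgre1, Csf1r and Msr1 had none. The 250 bases before the annotated start are given for Timd4, the gene that rose, for Cd68, the member with the lowest log2 fold change, and for Mrc1, whose level did not pass the test, with GAGGAA or its reverse complement TTCCTC in capitals.
Timd4 (chr11:46810549-46810798, plus strand): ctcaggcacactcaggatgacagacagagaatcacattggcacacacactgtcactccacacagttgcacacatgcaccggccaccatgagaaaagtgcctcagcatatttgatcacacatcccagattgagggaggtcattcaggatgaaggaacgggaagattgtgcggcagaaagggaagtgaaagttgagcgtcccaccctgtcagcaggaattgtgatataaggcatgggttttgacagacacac
Cd68 (chr11:69666171-69666420, minus strand): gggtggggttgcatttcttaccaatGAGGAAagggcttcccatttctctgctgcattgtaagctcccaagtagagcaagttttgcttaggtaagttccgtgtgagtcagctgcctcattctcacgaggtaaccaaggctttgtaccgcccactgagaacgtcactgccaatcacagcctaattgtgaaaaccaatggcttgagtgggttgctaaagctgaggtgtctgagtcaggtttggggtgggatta
Mrc1 (chr2:14229164-14229413, plus strand): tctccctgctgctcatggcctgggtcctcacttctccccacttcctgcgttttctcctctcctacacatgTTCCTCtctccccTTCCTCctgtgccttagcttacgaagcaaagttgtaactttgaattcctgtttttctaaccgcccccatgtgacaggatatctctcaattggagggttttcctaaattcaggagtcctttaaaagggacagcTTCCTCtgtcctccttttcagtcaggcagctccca
The Mrc1 window held 3 cores, which begin 180, 167 and 35 bases before the start, the Cd68 window held 1, at 225 bases, and the Timd4 window held 0. In all, 2 of 8 windows of these genes held the core on either strand, against 23.3% of 32851 windows of all genes, and 1 of 8 held the longer GAGGAAG, which contains the core, against 10.6%. The count is near the background, and it says only which letters stand in these windows.

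Levels between genes were compared per kilobase of exon, as CPM divided by the summed exon length of all annotated isoforms. In the libraries labelled knockout the order of mean levels was Mpeg1 (183 CPM per kilobase), Cd68 (116), Csf1r (114), Adgre1 (66.8), Mrc1 (51.7), Cd163 (36.3), Timd4 (15.6), Folr2 (14.8), Msr1 (14.1) and Cx3cr1 (14.0). In controls it was Mpeg1 (340.4 CPM per kilobase), Cd68 (267), Csf1r (151), Adgre1 (104), Mrc1 (51.5), Cd163 (40.5), Cx3cr1 (29.7), Folr2 (12.3), Msr1 (10.9) and Timd4 (1.27). The first 6 places were the same in both groups, and the change was at the low end, where Timd4 was last in controls and Cx3cr1 last in the libraries labelled knockout. Some neighbours in these orders overlap and cannot be ranked. In the libraries labelled knockout these are Cd68 and Csf1r, Mrc1 and Cd163, and the 4 genes from Timd4 to Cx3cr1, which ranged together from 12.5 to 18.6 CPM per kilobase. Summed over the 10 genes, the level was 631 and 622 CPM per kilobase in the libraries labelled knockout and 1053 and 964 CPM per kilobase in controls. Timd4 made up 2.95% and 2.01% of that sum in the libraries labelled knockout and 0.123% and 0.1299% in controls, Mrc1 9.29% and 7.21% against 4.84% and 5.41%, and Cd68 18.56% in each against 30.1% and 22.5%.

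Ratios within a library do not depend on scaling between libraries, and Csf1r was used as the common denominator. Csf1r itself was lower in both libraries labelled knockout, which raises every ratio to it there: of 19133 tested genes, 59.1% had both libraries labelled knockout above both controls in this ratio and 12.8% had both below. Timd4 had 5.97 and 4.25 counts per 100 Csf1r counts in the libraries labelled knockout and 0.3403 and 0.297 in controls. Msr1 had 12.6 and 14.7 against 8.92 and 6.97, Folr2 had 3.83 and 3.08 against 2.24 and 2.12, and Mrc1 had 55.1 and 44.7 against 39.2 and 36.3, each with both libraries labelled knockout above both controls. Cx3cr1 had 9.25 and 9.95 counts per 100 Csf1r counts against 16.3 and 14.5, Cd68 had 21.7 and 22.7 against 48.1 and 29.8, Mpeg1 had 105 and 137 against 182 and 158, and Adgre1 had 31.2 and 34.7 against 39.9 and 37.2, each with both libraries labelled knockout below both controls. The Cd163 ratio overlapped, at 36.4 and 23.5 against 24.5 and 26.1. Mrc1, whose CPM values overlapped, stood apart in its ratio to Csf1r, which was itself lower. With Cd68, also lower, below the line instead, Timd4 had 27.5 and 18.7 counts per 100 Cd68 counts against 0.708 and 0.998 in controls. Mrc1 had 254 and 197 counts per 100 Cd68 counts against 81.5 and 122. Cd68 fell by more than Csf1r (log2 fold changes −1.2 and −0.41), which raises every ratio to it in the libraries labelled knockout. The share of all tested genes that stand apart in the ratio to Cd68 was not computed. These ratios are descriptions, since the exact two-sided permutation test with 2 libraries against 2 cannot go below p = 0.333.

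**Figure D3:**
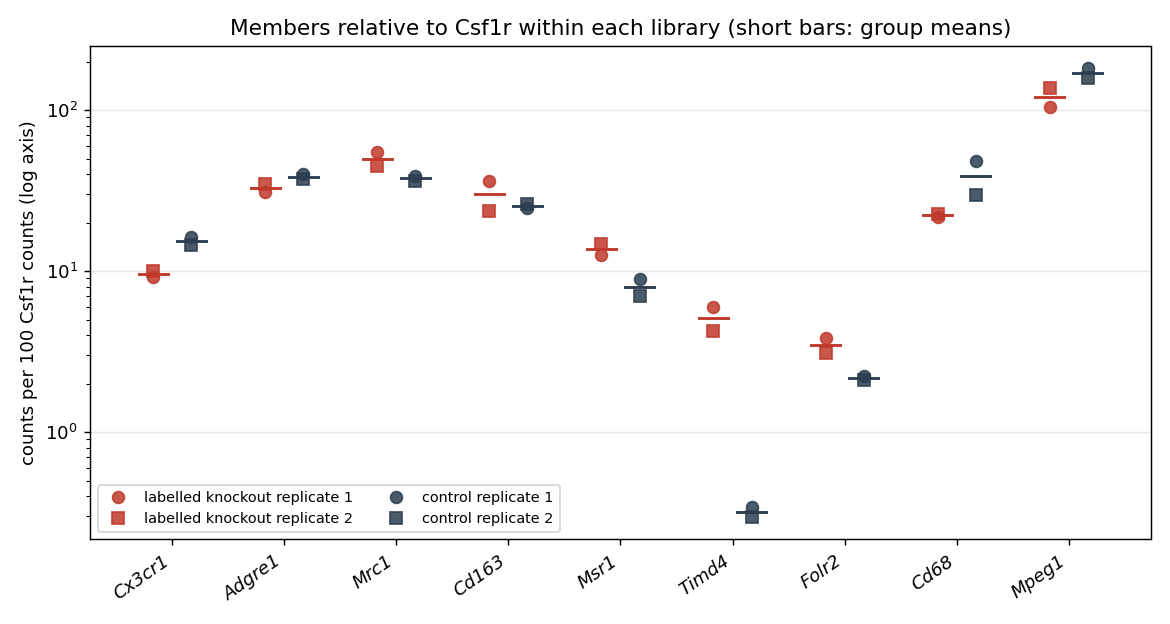
Counts of each resident macrophage gene per 100 Csf1r counts in the same library (log axis), labelled knockout in red and control in dark blue, circles for replicate 1 and squares for replicate 2, with short bars at the group means. Timd4, Msr1, Folr2 and Mrc1 lie higher in the libraries labelled knockout, and Cx3cr1, Cd68, Mpeg1 and Adgre1 lie lower.

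Set against Ptprc, the CD45 phosphatase of all leukocytes, the summed macrophage genes were lower in the libraries labelled knockout. Summed over the 10 genes there were 423 and 376 counts per 100 Ptprc counts in the libraries labelled knockout and 1736 and 1454 in controls. Mpeg1 and Csf1r had the most counts in this sum, so it does not stand for each gene. A rise of Ptprc lowers every ratio to it, and the share of all tested genes lower in this ratio was not computed. Ptprc itself, whose test was looked up after its values were seen, rose (log2 fold change 1.42, edgeR adjusted p = 0.00634), as did 8 of 10 genes common to all leukocytes (5 without control replicate 2), of which Cytip, a lymphocyte adhesion regulator, had the smallest p (log2 fold change 2.43, edgeR adjusted p = 0.002). Markers of T cells rose in 8 of 8 cases and those of B cells in 7 of 7, with the smallest p for Cd2 (log2 fold change 4.18, edgeR adjusted p = 0.00153) and Fcer2a (5.61, edgeR adjusted p = 0.00175), and dendritic cell markers in 7 of 8 (4 without control replicate 1), with the smallest p for Ccr7 (3.37, edgeR adjusted p = 0.00179). Other genes of the T, B and dendritic cell lists had larger fold changes. The part of these cells in the ratio to Ptprc was not tested.

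Ligands of the receptors were 4: Csf1 and Il34 for Csf1r, Cx3cl1 for Cx3cr1, and Hp, haptoglobin, whose complex with haemoglobin Cd163 takes up. Csf1 was at 163 and 150.0 CPM in libraries labelled knockout and 129 and 135 CPM in controls and did not pass (log2 fold change 0.25 ± 0.10, edgeR adjusted p = 0.15). Il34 was at 16.6 and 13.8 CPM against 24.7 and 20.2 CPM and did not pass either (−0.56 ± 0.18, edgeR adjusted p = 0.0853). Cx3cl1, at 20.6 and 25.0 CPM, lay within the range of the controls, 19.0 and 33.1 CPM, and its log2 fold change of −0.19 turned to 0.27 without control replicate 2. Hp was the ligand that rose, at 711 and 496 CPM against 136 and 197 CPM (1.86 ± 0.27, edgeR adjusted p = 0.0124; 0.0703 without control replicate 1, in a range from 6.57e-12 to 0.0703). Adipocytes also make haptoglobin, and 6 of 7 adipocyte markers rose in the same libraries, among them Pnpla2, a triglyceride lipase (1.74, edgeR adjusted p = 0.0101); their part in the Hp level was not tested.

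Other tissue macrophage genes were also split. Of 22 tested, 9 fell, 5 rose and 8 did not pass (median log2 fold change −0.49). Among those that fell were Slc40a1, the iron exporter ferroportin, at 46.6 and 49.3 CPM in libraries labelled knockout and 115 and 101 CPM in controls (−1.17 ± 0.11, edgeR adjusted p = 0.00464), and Ms4a7, a membrane protein of macrophages, at 78.8 and 94.2 CPM against 271 and 213 CPM (−1.48 ± 0.17, edgeR adjusted p = 0.00772). The 3 genes of complement C1q, C1qa, C1qb and C1qc, fell by 0.70, 0.94 and 0.71 on the log2 scale; they were chosen after their values were seen. C1qa and C1qc lost their calls without either library labelled knockout, without control replicate 1 and with the replicate block.

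The 5 that rose were Marco, Lyve1, Cd209f, Cd209d and Siglec1, the last 3 named after their values were seen. Marco, a scavenger receptor of macrophages that line blood and lymph spaces in spleen and lymph nodes, was at 753 and 793 CPM in libraries labelled knockout and 23.4 and 9.16 CPM in controls (5.57 ± 0.51, edgeR adjusted p = 0.00465). Siglec1, a receptor for sialic acid on macrophages of the same places, was at 459 and 459.6 CPM against 166 and 251 CPM (1.14 ± 0.22, edgeR adjusted p = 0.0243). Lyve1, a hyaluronan receptor of lymphatic endothelium and of perivascular macrophages, was at 264 and 209 CPM against 34.5 and 43.8 CPM (2.59 ± 0.19, edgeR adjusted p = 0.00301). Markers of lymphatic endothelium rose in 4 of 6 cases (2 without control replicate 1), with a summed level of 493 and 540.5 CPM against 146 and 216 CPM, and the part of that endothelium in the Lyve1 and Mrc1 levels was not tested. Cd209d and Cd209f, lectins of the DC-SIGN family, rose by log2 fold changes of 1.88 and 2.15 and lost their calls without control replicate 1 (edgeR adjusted p = 0.0957 and 0.136) or control replicate 2 (0.0543 and 0.088), the highest values over their alternatives being 0.0957 and 0.136. Without control replicate 1 the list had 5 lower and 3 higher genes, without control replicate 2 it had 3 higher, and without the second library labelled knockout 5 lower.

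**Figure D4:**
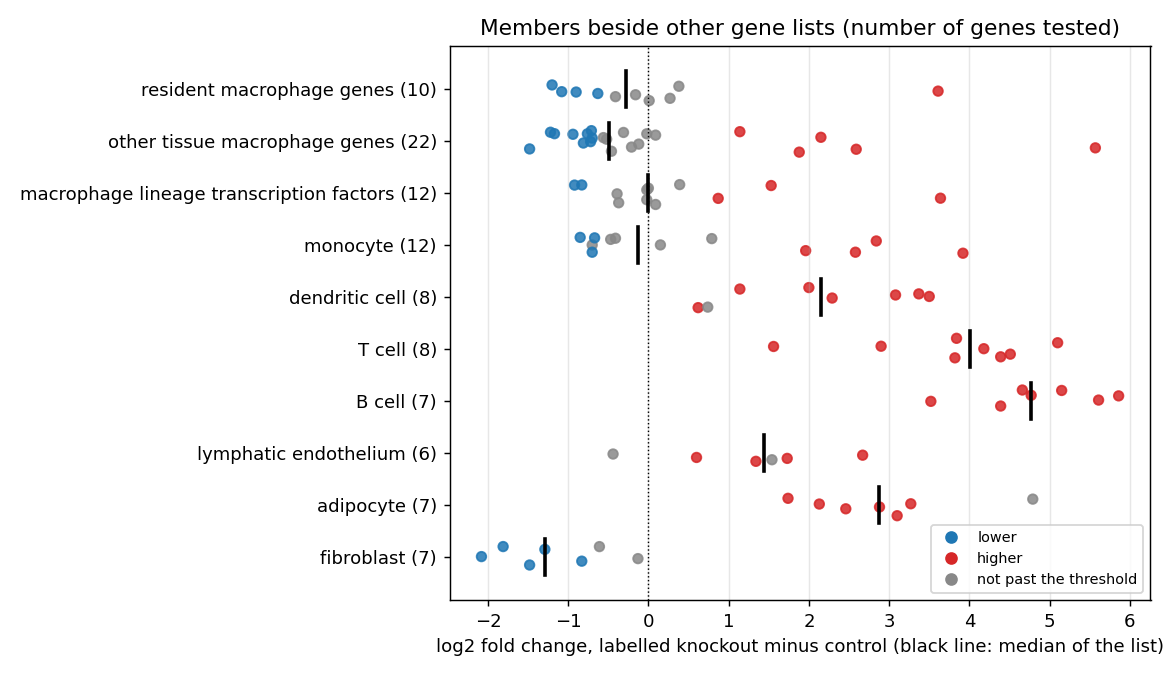
Log2 fold change of each tested gene, libraries labelled knockout minus control, for the 10 resident macrophage genes and for 9 comparison lists, blue for lower, red for higher and grey for genes not past the threshold, with a black line at each list's median. Macrophage lists have medians from −0.49 to −0.01 and single genes far to the right, whereas T cell and B cell markers have medians of 4.01 and 4.77 and fibroblast markers one of −1.29.

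Transcription factors of the macrophage lineage were also divided. Of 12 tested, 3 rose, 2 fell and 7 did not pass (median −0.01). Spic, a factor of iron-recycling and lymphoid-organ macrophages, was at 31.3 and 23.6 CPM in libraries labelled knockout and 2.91 and 1.51 CPM in controls (3.64 ± 0.37, edgeR adjusted p = 0.00582). Nr1h3, the oxysterol receptor LXR alpha, was at 78.3 and 75.7 CPM against 26.4 and 26.8 CPM (1.53 ± 0.10, edgeR adjusted p = 0.00225). Irf8, a factor of monocytes, dendritic cells and B cells, named after its values were seen, rose by 0.87 ± 0.16 (edgeR adjusted p = 0.0223), a call lost without control replicate 1 (0.103), control replicate 2 (0.0911) or the second library labelled knockout (0.0575), in a range from 1.81e-05 to 0.103. Maf, which helps to hold macrophages in their mature, non-dividing state, was at 183 and 166 CPM in libraries labelled knockout and 354 and 267 CPM in controls. It fell by 0.83 ± 0.17 on the log2 scale (adjusted p from edgeR = 0.0295). Its call was lost without control replicate 1 (0.0631) and without the second library labelled knockout (0.0684), in a range from 9.7e-05 to 0.0684. Without control replicate 1 the list had 0 lower genes, and without the second library labelled knockout 1. Spi1, which encodes PU.1, was at 84.6 and 91.1 CPM in libraries labelled knockout and 124 and 103 CPM in controls and did not pass (−0.37 ± 0.13, edgeR adjusted p = 0.1).

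Receptors and bridging proteins of engulfment, other than the 10 genes, rose in 6 and fell in 6 of 18 cases (median −0.26; 3 fell without control replicate 1 or without control replicate 2). Stab2, a hyaluronan and phosphatidylserine receptor of sinusoidal endothelium, was at 65.1 and 82.7 CPM in libraries labelled knockout and 5.78 and 3.89 CPM in controls (3.94 ± 0.25, edgeR adjusted p = 0.00225). Elmo1, which links engulfment receptors to the actin regulator Rac, rose by 0.87 ± 0.09 (edgeR adjusted p = 0.00595). Tyro3, a kinase receptor of the same family as Mertk, fell by 1.80 ± 0.14 and Itgb5, an integrin subunit, by 1.54 ± 0.15 on the log2 scale (adjusted p from edgeR = 0.00339 and 0.00561). Signalling genes near the CSF1 receptor rose in 5 and fell in 2 of 14 cases (median 0.42). Csf2rb, the shared subunit of the GM-CSF receptor, and Pik3cd, the leukocyte kinase subunit p110 delta, rose by 1.34 ± 0.17 and 0.87 ± 0.12 (edgeR adjusted p = 0.01 and 0.0112). Tyrobp and Fcer1g, adaptors of myeloid receptors, fell by 0.85 ± 0.15 and 1.06 ± 0.19 on the log2 scale (adjusted p from edgeR = 0.0198 and 0.0206). Without control replicate 1 the signalling list had 1 higher and 0 lower genes, and without either library labelled knockout 3 higher, against 8 with DESeq2 and 3 with the replicate block. Lymphocytes use Pik3cd too, and T and B cell markers rose in the same libraries, whose part was not tested.

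Monocyte markers, which tell incoming cells from settled ones, rose in 4 and fell in 3 of 12 cases (2 and 0 without control replicate 1; median −0.13). Ccr2, the receptor that draws monocytes from blood, was at 153 and 175 CPM in libraries labelled knockout and 275 and 318 CPM in controls (−0.85 ± 0.14, edgeR adjusted p = 0.0165). Lyz2, the lysozyme of phagocytes, was at 1992 and 1968 CPM against 3444 and 3004 CPM (−0.70 ± 0.16, edgeR adjusted p = 0.0396). Ccr2 and Lyz2 were chosen after their values were seen.

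Profiles over the 4 libraries were compared by the distance between log2(CPM + 0.5) values centred on each gene's mean, as a description over 4 libraries. The mean profile of the 10 genes was nearly flat, at 0.06 and −0.10 in the libraries labelled knockout and 0.04 and 0.00 in controls. Timd4 alone made it so: it stood at 1.97 and 1.40 in libraries labelled knockout and −1.66 and −1.70 in controls, whereas the mean of the other 9 genes was −0.15 and −0.27 against 0.23 and 0.19, and their log2 fold changes averaged −0.41. The 5 protein-coding genes of at least 10 CPM closest to this flat profile were Paqr4, Tor1b, Zfp958, Trmt6 and Trib1, at distances of 0.0243 to 0.0344, and none of the 5 was called. Among the 10 genes, Cx3cr1 and Mpeg1 were each other's nearest (0.26), as were Mrc1 and Folr2 (0.257) and Csf1r and Adgre1 (0.263), while Timd4 was at least 3.03 from every other member. The genes closest to Timd4, looked up after its values were seen, were Nlrp10, Jchain, Il9r, Pcdh15 and Lax1, at distances of 0.246 to 0.366. Jchain, the joining chain of secreted antibodies, was at 924 and 508 CPM in libraries labelled knockout and 72.2 and 54.5 CPM in controls. Those closest to Cx3cr1 were Ubtd1, Lrp4, Tmem132a, Gdpd5 and Fcgr3, at 0.0639 to 0.0723. Fcgr3, a myeloid receptor for antibodies, was at 162 and 165 CPM against 356 and 326 CPM.

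**Figure D5:**
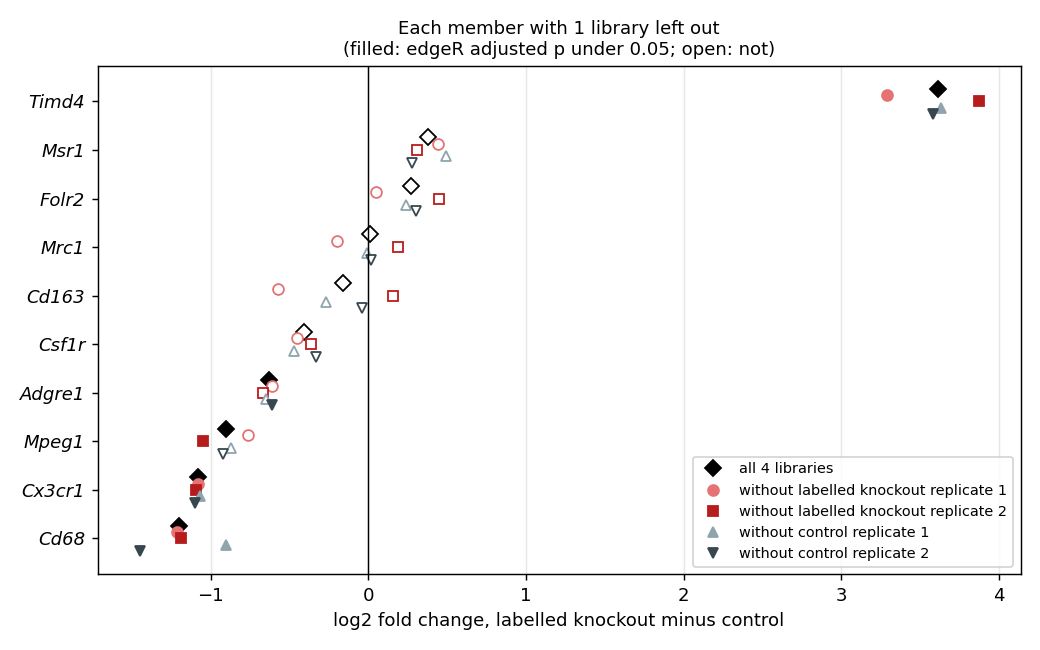
Log2 fold change of each resident macrophage gene, libraries labelled knockout minus control, in the fit of all 4 libraries (black) and with each library left out, filled where the edgeR adjusted p was under 0.05 and open where it was not. Timd4, Cx3cr1 and Cd68 are filled in every fit, Mpeg1 and Adgre1 lose their call in 3 of the 4 fits with a library left out, and Mrc1 and Cd163 lie on either side of 0.

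Leaving out single libraries changed how many of the 10 genes were called, as the plot of fits with a library left out shows. Without the first library labelled knockout 2 were lower, where 8.49% of tested genes were lower, and without the second 3 were, where 7.65% were. Without control replicate 1 also 2 were lower, where 2.08% of tested genes were, and without control replicate 2 it was 3, where 5.58% were. Timd4 was the 1 higher gene in each of these fits, beside 11.7% and 10.2% of tested genes without the first and the second library labelled knockout, and 3.44% and 7.69% without control replicates 1 and 2. With the replicate block 3 were lower and 1 higher, beside 7.48% and 10.2% of tested genes. Scaled by total counts alone, 4 were lower and 2 higher, beside 7.98% and 14.8%. Cd68 and Cx3cr1 were called lower and Timd4 higher in the fit of all libraries and in each of the 13 alternatives.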

How the data were processed

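Mouse pancreas RNA was measured in 4 libraries, grouped by their titles. Per the labels' protocols, RNA was extracted with TRIzol, and DNase was applied before the VAHTS library kit. The submitters' processing notes name the build GRCm38 and the tools STAR 2.7.6a, featureCounts 2.0.1, Trim Galore 0.6.6, FastQC 0.11.9 and SAMtools 1.7. The sources used here do not give the strand setting, the annotation release or the handling of multiply aligned reads. The authors deposited raw counts, as whole numbers for each gene symbol.

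The members, gene lists and tests were chosen with earlier results of these data known. Counts of all genes were fitted with edgeR 4.0.16 in R 4.3.3 (filterByExpr, TMM, quasi-likelihood F test, group as the only term), with Benjamini-Hochberg adjustment over 19134 genes at 0.05. The SE after ± is log2 fold change over the square root of the F statistic. The fit was tested on simulated data. Positions, exon lengths and overlaps come from GENCODE M21, promoters from RefSeq. Alternatives were 4 other scalings, 2 other filters, DESeq2 1.42.0, limma-voom (limma 3.58.1), a replicate block and leaving out each library, where the library left alone is taken to vary as the other group does. Replicates differed by more than counting noise (chi-square per degree of freedom 32.5 and 46.2 within groups, 141 or more between them). Named genes were the 10 members, Psmd14, all ligands, the 2 called genes of smallest p per direction in each pathway list, the gene of smallest p in cell type lists, the 5 closest profiles, and genes said to be chosen after their values were seen. Some genes that this rule names are not reported here.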

Additional observations from a re-analysis of the deposited data

How the results depend on the processing

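Of 130 repeats of the 10 log2 fold changes under 13 alternatives, 116 kept their direction and their side of the threshold, 7 lost a call, 2 gained one (Csf1r with DESeq2, Msr1 without scaling) and 5 changed sign, none of them past the threshold in either fit. The sign changes were Mrc1 with limma-voom (−0.01), with the replicate block (−0.01), without the first library labelled knockout (−0.20) and without control replicate 1 (−0.01), and Cd163 without the second library labelled knockout (0.16). With a library left out Mrc1 ranged from −0.20 to 0.19, Cd163 from −0.57 to 0.16 and Cx3cl1 from −0.54 to 0.27. Cx3cl1 turned to 0.27 without control replicate 2. Scaling by total counts alone gave 2 higher members. The longer motif was in 1 window. With a library left out, lower members ranged from 2 to 3 and higher members stayed at 1, their median from −0.51 to −0.10, all lower genes from 424 to 1696 and all higher genes from 702 to 2338. On the same basis, ligands had 0 to 1 higher, other tissue macrophage genes 5 to 9 lower and 3 to 5 higher, transcription factors 0 to 2 lower, engulfment genes 3 to 6 lower, and signalling genes 0 to 2 lower and 1 to 6 higher. Signalling genes had 8 higher with DESeq2 and 3 with the replicate block. That block left 3 members lower, Adgre1 being lost, and 1432 lower and 1960 higher genes in all. The titles give same-numbered libraries of the groups a shared number and do not say if they were paired. The correlation of their deviations over genes was −0.0217. It cannot settle this, since with 2 libraries per group both pairs give the same value by construction. The log2 fold change of Adgre1 was −0.63 with and without the block. Psmd14 stayed between 0.09 and 0.31 in all 13 alternatives and was called in none of them. The cause of these changes was not tested. With 2 libraries per group, differences as small as those of Folr2 or Msr1 cannot be settled.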
